A study of Mus musculus with 71 samples.

Results

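Slit1, Slit2, Slit3, Robo1, Robo2, Robo3 and Robo4 are the 7 genes of the mouse Slit ligand and Robo receptor families, and they were taken by gene symbol from the 37681 genes listed in each of the 6 tables of the study. The family was chosen by its differences between cocaine and saline in these same tables. RNA-seq was used to compare wild-type C57BL/6 mice that self-administered cocaine with mice that self-administered saline. The mice were adult C57BL/6J males and females that had first learned to work for food, and the sex of each library was not labelled. Micropunches of the nucleus accumbens (NAc), ventral tegmental area (VTA) and prefrontal cortex (PFC) were taken after 1 or 28 days of abstinence, which gave 12 groups and 71 libraries, with 6 libraries in each group except saline VTA at 28 days, which had 5. A punch holds every cell type of the tissue, so fewer cells of a type and less RNA per cell cannot be told apart.

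Slits are large secreted proteins that bind Robo receptors on growing axons and on migrating cells, usually as a repellent signal. Robo1 and Robo2 are the main neuronal Slit receptors, and both take part in steering the axons of midbrain dopamine neurons. Robo3 is a divergent receptor known for letting commissural axons cross the midline, and the mammalian form does not bind Slits with high affinity. Robo4 is found mainly on vascular endothelium. In the adult brain, members of both families are also known from synapses and blood vessels. Inside the cell, Robo receptors act on the actin skeleton through adaptors, srGAP proteins and small GTPases.

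The families are also joined by a microRNA. In the mm9 annotation, the Mir218-1 hairpin (chr5:48615181-48615290, plus strand) lies within an intron of Slit2, and the Mir218-2 hairpin (chr11:35430318-35430427, plus strand) within an intron of Slit3. Both give the same mature microRNA, for which Robo1 and Robo2 are known targets. Its sequence from RefSeq (GRCm38.p6) is shown because Slit2, Slit3 and the Robo genes below are tied to it by position or by sequence, with bases 2 to 8, the seed, in capitals.
mmu-miR-218-5p: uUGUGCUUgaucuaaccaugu

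The longest annotated 3′ untranslated region of each member was searched on the sense strand for AAGCACA, the complement of the seed. Robo2 had 2 matches, Robo1 and Robo3 had 1 each, and the other 4 members had 0. Over all 19915 genes with an annotated 3′ untranslated region, 12.5% had a match and 1.98% had 2 or more, and among the 8225 genes whose region is 1000 to 4000 bases long, as in Robo1 (1733 bases) and Robo2 (3520 bases), the shares were 19.6% and 2.8%. The matches follow, 5′ to 3′ on the strand of the gene, with the matched bases in capitals and mm9 positions. A match is a description of the letters, and small RNA was not measured in these libraries.
Robo1, chr16:73045583-73045605, plus strand: ttggttttaaAAGCACAatcact
Robo2, chr16:73895598-73895620, minus strand: atttggtgatAAGCACAaatctc
Robo2, chr16:73893272-73893294, minus strand: cggcagacccAAGCACAgcttct
Robo3, chr9:37223824-37223846, minus strand: tgactcactgAAGCACActgtct

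Libraries held between 20971967 and 49700932 reads on genes. Marker genes followed the labelled regions. The summed level of 10 striatal neuron markers was at least 1703 RPKM in every NAc library. That of 10 dopamine neuron markers was at least 432.8 RPKM in every VTA library and at most 23.6 RPKM elsewhere. That of 10 cortical excitatory neuron markers was at least 539.3 RPKM in every PFC library, and reached 328.8 RPKM in the NAc and 126.7 RPKM in the VTA. RPKM scales the reads of a gene by its length and by the size of the library, so levels in RPKM can be compared between genes. Of the libraries, 3 stood apart most on a marker list. Saline library 4 of the PFC at 28 days held 1393 RPKM of striatal markers, 10.1-fold the next library of its group. In the VTA, cocaine library 6 at 1 day and saline library 4 at 28 days held 557 and 449 RPKM of 10 meningeal and perivascular fibroblast markers, 2.34-fold and 2.45-fold the next library of their groups. The values of members in the VTA and PFC that these 3 libraries move most are given with and without them. The next widest gaps were those of saline library 6 of the PFC and cocaine library 3 of the NAc, both at 28 days. They held 68.1 RPKM of fibroblast markers (2.19-fold the next library) and 233 RPKM of cortical excitatory markers (2.02-fold).

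The first question was where the members are expressed without cocaine, which the choice of the members did not use. Regions were compared among saline mice with edgeR's quasi-likelihood test over all genes, at 28 days and again at 1 day in other libraries. At 1 day, raw counts of the NAc were joined with whole reads recovered from the RPKM of the VTA and PFC, so the NAc contrasts mix these 2 sources. Region and table cannot be told apart, since each region was deposited as its own table. At 28 days, 6 of 7 members differed between NAc and VTA, 4 between NAc and PFC and 4 between VTA and PFC (adjusted p under 0.05, Benjamini-Hochberg), where 62.5%, 40.7% and 57.8% of all genes tested did. At 1 day the numbers were 5, 4 and 4, against 66.0%, 40.9% and 64.6% of all genes. Over the 21 contrasts of a member between 2 regions, the sign was the same at both times in 20, and 10 were past the threshold at both times, all 10 with the same sign.

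**Figure D1:**
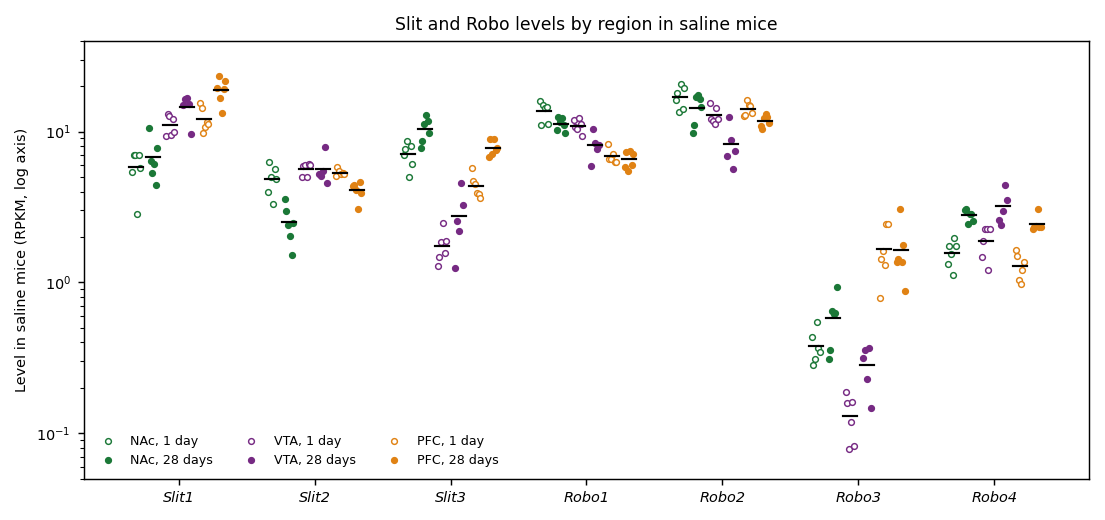
Level of each member in saline mice (RPKM, log axis), 1 point per library, with open points at 1 day, filled points at 28 days, colour for the region and a bar at the group mean. Slit3 was lowest in the VTA, with means of 1.76 and 2.77 RPKM, and Robo3 was highest in the PFC, with means of 1.67 and 1.65 RPKM, while Robo4 differed little by region.

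Among the ligands, Slit3 was lowest in the VTA and Slit1 in the NAc. Slit3 (ENSMUSG00000056427, mm9 chromosome 11, 34934726 to 35522009, plus strand) was at 10.4 ± 1.96 RPKM (SD, n = 6) in the NAc, 7.84 ± 0.894 RPKM (SD, n = 6) in the PFC and 2.77 ± 1.24 RPKM (SD, n = 5) in the VTA of saline mice at 28 days. It was 4.05-fold higher in NAc than in VTA (log2 2.02, SE 0.239, adjusted p = 9.36e-07, edgeR) and 3.13-fold higher in PFC than in VTA (log2 -1.65 as VTA minus PFC, SE 0.236, adjusted p = 1.01e-05, edgeR), and neither pair of groups overlapped. At 1 day the VTA was again lowest, with 1.76 ± 0.416 RPKM (SD, n = 6) against 7.08 ± 1.32 in the NAc and 4.39 ± 0.792 in the PFC. NAc and PFC differed at 1 day (log2 0.65, SE 0.138, adjusted p = 0.000711, edgeR), and the difference at 28 days did not pass (log2 0.37, SE 0.214, adjusted p = 0.183, edgeR). With the cocaine libraries added, that difference passed (log2 0.49, SE 0.125, adjusted p = 0.00106, edgeR).

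Slit1 (ENSMUSG00000025020, chromosome 19, 41674747 to 41818155, minus strand), a ligand made mainly by neurons, was lowest in the NAc. At 28 days it was at 6.76 ± 2.21 RPKM (SD, n = 6) in the NAc, 14.6 ± 2.82 RPKM (SD, n = 5) in the VTA and 18.9 ± 3.61 RPKM (SD, n = 6) in the PFC, and all 3 regions differed. PFC over NAc was 2.89-fold (SE 0.183 on the log2 scale, adjusted p = 3.55e-06, edgeR) and VTA over NAc was 2.02-fold (SE 0.188, adjusted p = 0.000145, edgeR). The smaller step from VTA to PFC (1.44-fold, SE 0.188, adjusted p = 0.0244, edgeR) did not pass without saline VTA library 5 (adjusted p = 0.0804) or without saline PFC library 2 (adjusted p = 0.0590). At 1 day VTA and PFC were neighbours that did not differ beyond their spread (log2 -0.24 as VTA minus PFC, SE 0.155, adjusted p = 0.175, edgeR). They passed at 1 day when saline NAc library 4 was left out of the fit (adjusted p = 0.0491, edgeR).

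Slit2 (ENSMUSG00000031558, chromosome 5, 48374394 to 48697521, plus strand) was lowest in the NAc at 28 days, with 2.50 ± 0.718 RPKM (SD, n = 6) against 5.64 ± 1.34 RPKM (SD, n = 5) in the VTA and 4.08 ± 0.545 RPKM (SD, n = 6) in the PFC. The VTA stood above the NAc (log2 -1.07 as NAc minus VTA, SE 0.169, adjusted p = 2.65e-05, edgeR) and so did the PFC (log2 -0.75 as NAc minus PFC, SE 0.162, adjusted p = 0.00111, edgeR). At 1 day its means lay between 4.86 and 5.68 RPKM in the 3 regions, and no pair of regions passed the test (adjusted p from 0.196 to 0.842, edgeR). Without saline NAc library 2 at 1 day, both NAc contrasts did pass (adjusted p = 0.0264 and 0.0244). With the cocaine libraries added, the VTA passed at 1 day over the NAc (adjusted p = 0.000174, edgeR) and over the PFC (0.00828). The VTA then also passed over the PFC at 28 days (adjusted p = 0.00236, edgeR, against 0.115 in saline mice alone).

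Among the receptors, Robo1 and Robo2 were the most abundant members in the NAc. Robo1 (ENSMUSG00000022883, chromosome 16, 72663394 to 73046340, plus strand) was at 11.2 ± 1.11 RPKM (SD, n = 6) in the NAc, 8.10 ± 1.61 RPKM (SD, n = 5) in the VTA and 6.55 ± 0.841 RPKM (SD, n = 6) in the PFC at 28 days. The NAc was 1.67-fold above the PFC (SE 0.120 on the log2 scale, adjusted p = 8.26e-05, edgeR) and 1.49-fold above the VTA (SE 0.127, adjusted p = 0.000678, edgeR). VTA and PFC did not pass at 28 days (log2 0.16, SE 0.126, adjusted p = 0.283, edgeR) and did at 1 day (log2 0.57, SE 0.0945, adjusted p = 2.85e-05, edgeR), with 11.0 ± 1.04 RPKM (SD, n = 6) in the VTA and 6.87 ± 0.781 RPKM (SD, n = 6) in the PFC. With the cocaine libraries added, VTA over PFC passed at 28 days too (log2 0.33, SE 0.0815, adjusted p = 0.000612, edgeR).

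Robo2 (ENSMUSG00000052516, chromosome 16, 73892551 to 74412070, minus strand) lies on the same chromosome as Robo1. At 28 days it was at 14.4 ± 3.26 RPKM (SD, n = 6) in the NAc, 11.7 ± 1.02 RPKM (SD, n = 6) in the PFC and 8.25 ± 2.66 RPKM (SD, n = 5) in the VTA. The NAc was 1.88-fold above the VTA (SE 0.195 on the log2 scale, adjusted p = 0.000552, edgeR) and the PFC 1.57-fold above it (SE 0.194, adjusted p = 0.00817, edgeR), while NAc and PFC did not pass (log2 0.26, SE 0.183, adjusted p = 0.273, edgeR). At 1 day NAc over VTA passed (1.40-fold, SE 0.120, adjusted p = 0.00142, edgeR) and the other pairs did not. NAc against PFC passed without saline NAc library 3 (adjusted p = 0.0448), and VTA against PFC without saline VTA library 1 (0.0292), without saline PFC library 1 (0.0432) and with the cocaine libraries added (3.89e-05).

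Robo3 (ENSMUSG00000032128, chromosome 9, 37223254 to 37240760, minus strand) had the lowest mean of the members in every group of the NAc and VTA. It had between 8 and 689 reads in a library and the steepest differences between regions. At 28 days it was at 1.65 ± 0.751 RPKM (SD, n = 6) in the PFC, 0.583 ± 0.227 RPKM (SD, n = 6) in the NAc and 0.284 ± 0.0938 RPKM (SD, n = 5) in the VTA, and PFC over VTA was 6.45-fold (SE 0.350 on the log2 scale, adjusted p = 3.39e-06, edgeR). At 1 day the order was the same, with PFC 13.7-fold above VTA (SE 0.297, adjusted p = 9.95e-10, edgeR) and NAc 3.07-fold above VTA (SE 0.316, adjusted p = 0.000152, edgeR). NAc over VTA at 28 days was 2.23-fold (SE 0.342, adjusted p = 0.00699, edgeR), and this difference was lost when the cocaine libraries were added to the fit (log2 0.06, SE 0.300, adjusted p = 0.856).

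Robo4 (ENSMUSG00000032125, chromosome 9, 37209482 to 37221608, plus strand) ends 1645 bases from the end of Robo3, on the other strand. Its means in saline mice ran from 1.29 to 1.89 RPKM at 1 day and from 2.45 to 3.19 RPKM at 28 days. The VTA was 1.36-fold above the PFC at 1 day (SE 0.163 on the log2 scale, adjusted p = 0.0233, edgeR), and this was the only contrast of Robo4 that passed. Without 1 of 5 libraries (saline VTA library 3, 4 or 6, or saline PFC library 3 or 4) it did not pass, with adjusted p from 0.0536 to 0.0593. With the cocaine libraries added, NAc against VTA at 1 day also passed (log2 -0.35 as NAc minus VTA, SE 0.122, adjusted p = 0.0114, edgeR).

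The second question was how the members stood after cocaine, in each region and at each time. These contrasts are part of how the members were chosen, so the values are a description and no p-value is given for them. The number of members past a threshold is given beside the share of all genes past it, and nothing is read from it. Fitted log2 fold changes come from edgeR for the count tables and from limma on log2(RPKM + 0.1) for VTA and PFC at 1 day, a scale that understates the change of low genes. At an adjusted p under 0.05, 1 member was called in the VTA at 1 day, where 0.0665% of all genes were, and 0 members were called elsewhere, where the shares of all genes were 0.0126% (NAc) and 0.00693% (PFC) at 1 day and 0.0% in each region at 28 days. The groups of 1 member did not overlap in the VTA at each time, and 0 members had groups apart in the NAc and PFC, where 0.214% and 0.159% of the genes tested did at 1 day, and 0.301% and 0.233% at 28 days. The median size of the log2 fold change over the members, regardless of sign, was 0.05 (1 day) and 0.24 (28 days) for the NAc, 0.29 and 0.37 for the VTA, and 0.06 and 0.10 for the PFC. Over all genes tested it was 0.07 at both times for the NAc, 0.10 and 0.13 for the VTA, and 0.06 and 0.07 for the PFC.

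**Figure D2:**
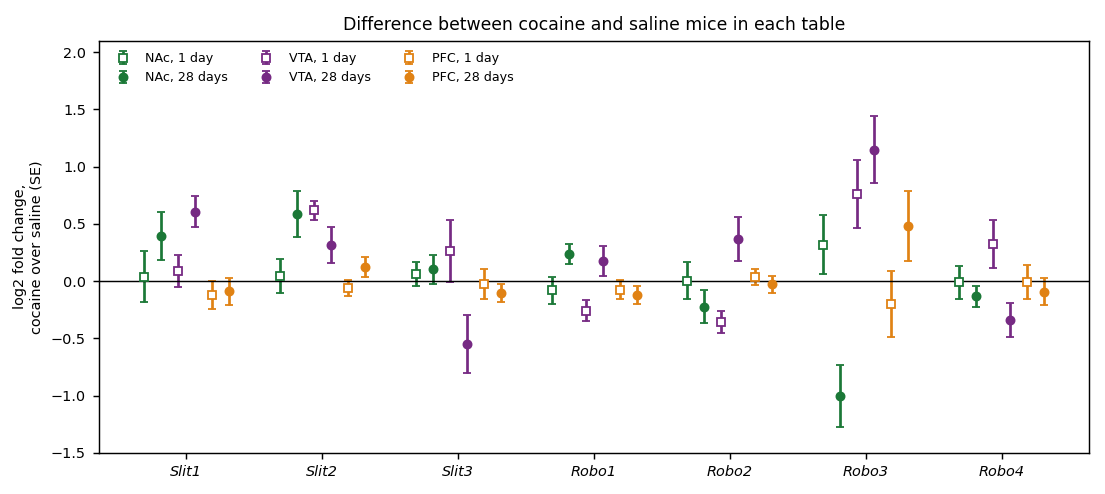
Log2 fold change of cocaine over saline for each member (bars are standard errors), with open squares at 1 day, filled circles at 28 days and colour for the region; Robo3 in the VTA at 1 day is from the fit without a filter on low values. The largest values are those of Robo3, at 1.15 in the VTA and -1.0 in the NAc at 28 days, and the PFC values lie close to 0 except for Robo3.

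Slit2 in the VTA at 1 day had the members' only groups that did not overlap at that time, and it was the member past the threshold. Saline libraries lay between 4.99 and 6.12 RPKM (median 5.96), and cocaine libraries lay between 7.71 and 9.79 RPKM (median 8.77). The groups did not overlap, as was the case for 1.67% of the genes tested in that table. The fitted difference was 1.53-fold (log2 0.62, SE 0.0826), and it stayed between 0.58 and 0.65 on the log2 scale with any 1 library left out. The call itself was kept in 6 of these 12 fits, and was lost without cocaine library 2, 3 or 4 or saline library 1, 2 or 5. Since this contrast was part of the choice of the members, its calls are a description only. With a covariate for cortical markers the log2 fold change was 0.48 (SE 0.117) and no longer called. The summed level of 10 cortical excitatory markers ran from 34.5 to 78.3 RPKM in the saline libraries and from 45.8 to 123 RPKM in the cocaine libraries of that table, and 6 of the 6 markers tested were higher after cocaine. In the same punches 10 of 10 fibroblast markers were higher (summed level 33.4 to 135 RPKM after saline, 72.6 to 557 RPKM after cocaine, 0 called) and 10 of 10 microglia markers lower (241 to 350 RPKM and 165 to 254 RPKM, 1 called), and their part in the difference was not tested. Without cocaine library 6, which held the most fibroblast markers, Slit2 was called at a log2 fold change of 0.65.

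At 28 days in the VTA, Slit2 was at 5.21, 5.04, 5.44, 7.96 and 4.55 RPKM in the saline libraries and between 5.61 and 9.69 RPKM (median 6.62) in the cocaine libraries. The groups overlapped through saline library 4, 1 of the libraries that stood apart. The log2 fold change was 0.31 (SE 0.157), 0.47 (SE 0.137) without that library, and 0.53 (SE 0.185) with the cortical covariate. In the NAc at 28 days, saline libraries lay between 1.52 and 3.57 RPKM (median 2.45) and cocaine libraries between 2.46 and 5.78 RPKM (median 3.59), with 3 cocaine libraries above all saline libraries and a log2 fold change of 0.58 (SE 0.203). The highest was cocaine library 3, which held the most cortical excitatory markers of its group. The log2 fold change ran from 0.42 to 0.70 with any 1 library left out. In these NAc punches 9 of 10 cortical excitatory markers were lower after cocaine (summed level 29.5 to 202 RPKM after saline, 13.1 to 233 RPKM after cocaine). So were 10 of 10 endothelial, 10 of 10 oligodendrocyte, 9 of 10 microglia and 8 of 10 striatal markers. Higher were 9 of 10 astrocyte and 8 of 10 fibroblast markers, and 0 markers of these lists were called. Their part in the values of the members was not tested. In the NAc at 1 day and in the PFC, the log2 fold changes of Slit2 lay between -0.06 and 0.12. Without saline PFC library 4 at 28 days, the value of 0.12 was 0.06, that of Slit1 moved from -0.09 to -0.17, Slit3 from -0.10 to -0.06, Robo1 from -0.12 to -0.07, Robo2 from -0.03 to 0.01 and Robo4 from -0.09 to -0.01.

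Slit1 was higher in the cocaine libraries of the VTA at 28 days. The saline libraries were at 15.1, 16.4, 16.6, 15.2 and 9.70 RPKM, and the cocaine libraries lay between 19.2 and 26.7 RPKM (median 22.1). No library of one group reached the other, as for 1.33% of the genes tested in that table. The fitted difference was 1.52-fold (log2 0.61, SE 0.134). Without saline library 5, the low one, the log2 fold change was 0.50, the lowest of the fits with 1 library left out. In these punches, 10 of 10 markers each of microglia, endothelium, oligodendrocytes and fibroblasts were lower after cocaine, with 0 called, and their part in the values of the members was not tested. DESeq2 called Slit1 in this table, along with Robo3, while it called 0.437% of all genes. Since these contrasts were part of the choice of the members, nothing is read from these calls. Elsewhere Slit1 had log2 fold changes of 0.39 (SE 0.209) in the NAc at 28 days, where the groups overlapped and leaving out cocaine library 3 gave 0.23, and of between -0.12 and 0.09 in the other 4 tables. That NAc library held the most cortical excitatory markers of its group (233 RPKM). Without cocaine library 6, the value of 0.09 in the VTA at 1 day was 0.18.

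Slit3 differed little outside the VTA, with log2 fold changes between -0.10 and 0.10. In the VTA its 2 values had opposite signs, 0.26 (SE 0.274) at 1 day and -0.55 (SE 0.254) at 28 days, and each leaned on 1 library. At 1 day the saline libraries lay between 1.28 and 2.47 RPKM and the cocaine libraries between 1.28 and 4.57 RPKM, where the highest was cocaine library 6, and without it the log2 fold change was 0.04 (SE 0.211). At 28 days the saline libraries were at 1.24, 2.57, 2.19, 4.56 and 3.29 RPKM and the cocaine libraries lay between 1.52 and 2.35 RPKM, and without saline library 4 the log2 fold change was -0.30 (SE 0.224). Both are the libraries with the most fibroblast markers. With the cortical covariate the values were -0.10 (SE 0.402) at 1 day, with the sign turned, and 0.02 (SE 0.248) at 28 days. At 1 day, leaving out cocaine library 1 gave 0.40. At 28 days the value ran from -0.73 to -0.30 with any 1 library left out, and all 6 cocaine libraries were below the saline mean.

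**Figure D3:**
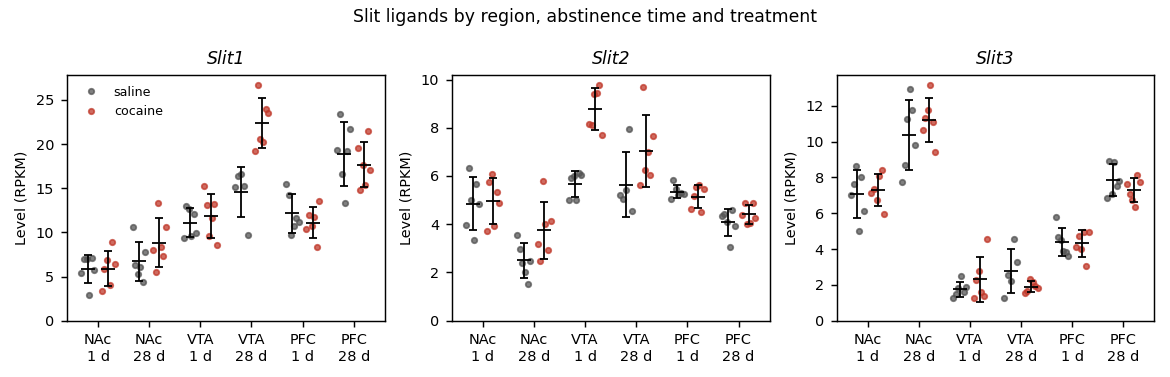
Level of the Slit ligands (RPKM) by region and days of abstinence, 1 point per library, in grey for saline and red for cocaine, with the mean and SD of each group in black. The cocaine libraries lie above all saline libraries for Slit2 in the VTA at 1 day (7.71 to 9.79 against 4.99 to 6.12 RPKM) and for Slit1 in the VTA at 28 days.

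Robo1 and Robo2, the receptors through which Slits act on neurons, had lower levels after cocaine in the VTA at 1 day. Robo2 lay between 11.2 and 15.4 RPKM (median 12.0) in the saline libraries and between 8.28 and 11.3 RPKM (median 9.84) in the cocaine libraries, with 4 of 6 cocaine libraries below all saline libraries. Its log2 fold change was -0.36 (SE 0.0976). Robo1 lay between 9.39 and 12.2 RPKM (median 11.0) in the saline libraries and between 7.91 and 11.5 RPKM (median 8.97) in the cocaine libraries, and 5 of 6 cocaine libraries were below all saline libraries. The exception was cocaine library 6, and the log2 fold change of Robo1 was -0.26 (SE 0.0917) with it and -0.33 (SE 0.0746) without it. With the cortical covariate the values were -0.21 (SE 0.140) for Robo2 and -0.12 (SE 0.132) for Robo1. The 9 of 10 dopamine neuron markers tested there were also all lower after cocaine, with 0 called, and their summed level ran from 675 to 1721 RPKM after saline and from 433 to 1060 RPKM after cocaine. Their part in the values of Robo1 and Robo2 was not tested.

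At 28 days the VTA values of both receptors were positive. In these punches 9 of 10 dopamine neuron markers were higher after cocaine, with 0 called. Their summed level ran from 464 to 2070 RPKM after saline and from 656 to 1926 RPKM after cocaine. The part of these markers in the values of Robo1 and Robo2 was not tested. Robo2 was at 6.84, 12.5, 8.84, 5.63 and 7.41 RPKM in the saline libraries and between 8.33 and 13.2 RPKM (median 10.6) in the cocaine libraries, every cocaine library lying above the mean of the saline ones, and with a log2 fold change of 0.37 (SE 0.192). With the cortical covariate the value was 0.01 (SE 0.188), without saline library 4 it was 0.26 (SE 0.178), and without saline library 2, the high one, it was 0.58. Robo1 had a log2 fold change of 0.17 (SE 0.130) there, 0.06 (SE 0.167) with the cortical covariate, 0.09 without saline library 1 and 0.29 without saline library 2. In the NAc at 28 days, Robo1 lay between 9.74 and 12.5 RPKM (median 11.4) in the saline libraries and between 11.3 and 15.4 RPKM (median 13.3) in the cocaine libraries, each of them above the mean of saline, with a log2 fold change of 0.24 (SE 0.0895). In the same punches, Robo2 lay between 9.74 and 17.5 RPKM (median 15.5) and between 10.9 and 14.2 RPKM (median 12.3), each cocaine library below the mean of saline, with a log2 fold change of -0.23 (SE 0.144). Of the cortical excitatory markers in these NAc punches, 9 of 10 were lower after cocaine and 1 was higher, with 0 called. Within the NAc, Robo1 ran against these markers from library to library, as given below. Their part in the NAc values of Robo1 and Robo2 was not tested, and no covariate for them was fitted there. In the NAc at 1 day and in the PFC, the log2 fold changes of Robo1 lay between -0.12 and -0.08 and those of Robo2 between -0.03 and 0.03.

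Robo3, the receptor of midline crossing, had the largest fold differences and the fewest reads. In the NAc at 28 days it lay between 0.310 and 0.936 RPKM (median 0.622) in the saline libraries, from 50 to 142 reads, and between 0.211 and 0.460 RPKM (median 0.264) in the cocaine libraries, from 30 to 77 reads. Of the 6 cocaine libraries, 5 were below all saline libraries, and the log2 fold change was -1.0 (SE 0.268). In the VTA at 28 days the sign was the opposite. Saline libraries were at 0.316, 0.358, 0.230, 0.369 and 0.148 RPKM and cocaine libraries lay between 0.295 and 0.889 RPKM (median 0.647), with 5 of 6 above all saline libraries and a log2 fold change of 1.15 (SE 0.293), or 1.26 (SE 0.320) without saline library 4.

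In the VTA at 1 day Robo3 had from 10 to 23 reads in the saline libraries and from 8 to 75 in the cocaine libraries, and its mean was below the 0.5 RPKM needed for the main fit. Saline libraries lay between 0.0793 and 0.187 RPKM and cocaine libraries between 0.0641 and 0.594 RPKM, with 5 of 6 cocaine libraries above all saline libraries and cocaine library 6 below them. The log2 fold change was 0.76 (SE 0.298) without the filter, and 1.25 (SE 0.417) in edgeR on the reads recovered from RPKM. In the NAc at 1 day it was 0.32 (SE 0.258), and in the PFC -0.20 (SE 0.289) at 1 day and 0.48 (SE 0.308) at 28 days, with the groups overlapping in all 3. Leaving out cocaine library 6 gave 0.03 in the NAc, and with any 1 library left out the PFC values ran from -0.40 to -0.01 at 1 day and from 0.19 to 0.75 at 28 days.

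Robo4, the endothelial receptor, had log2 fold changes of 0.32 (SE 0.208) in the VTA at 1 day and -0.34 (SE 0.150) at 28 days, and of between -0.13 and -0.01 in the other 4 tables. Without the libraries that stood apart, the VTA values were 0.20 (SE 0.189) and -0.19 (SE 0.130), and with the cortical covariate they were 0.12 (SE 0.313) and -0.00 (SE 0.137). With any 1 library left out they ran from 0.20 to 0.44 at 1 day and from -0.41 to -0.19 at 28 days. The VTA signs were those of the endothelial markers, of which 10 of 10 were higher after cocaine at 1 day and 10 of 10 lower at 28 days, although 0 were called. Their summed level ran from 110 to 152 RPKM after saline and from 116 to 209 RPKM after cocaine at 1 day, and from 133 to 289 RPKM and from 119 to 173 RPKM at 28 days, and their part in the values of Robo4 was not tested.

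**Figure D4:**
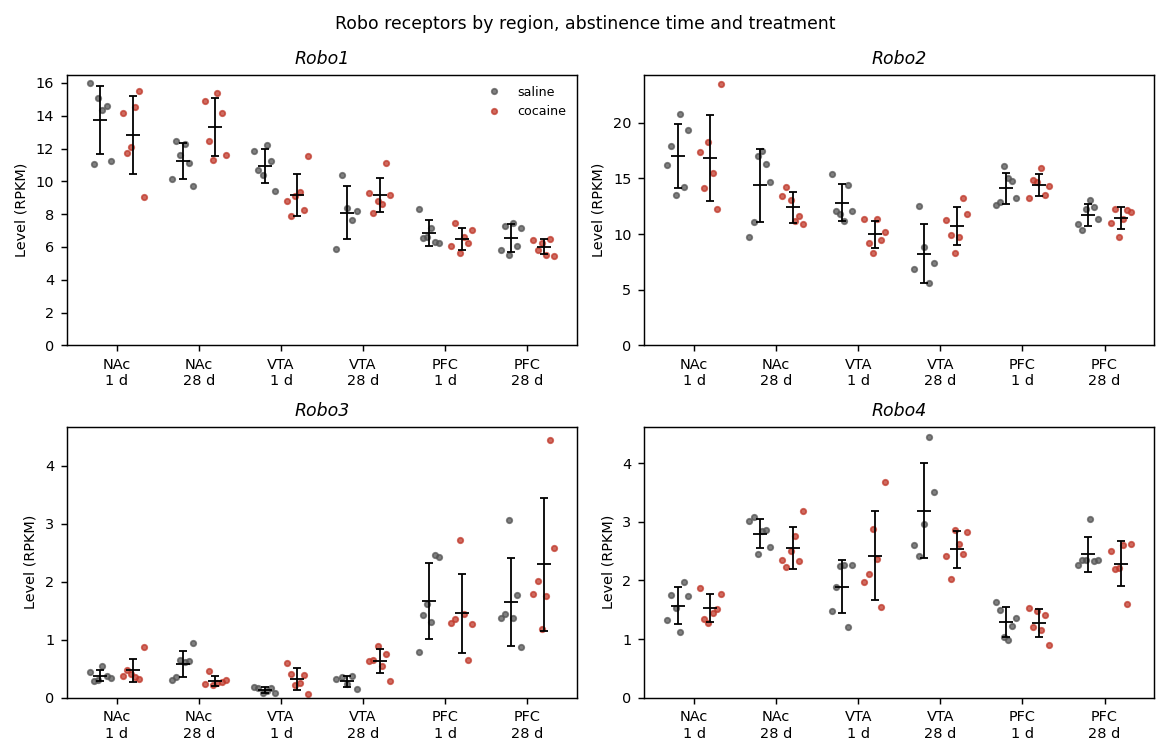
Level of the Robo receptors (RPKM) by region and days of abstinence, 1 point per library, in grey for saline and red for cocaine, with the mean and SD of each group in black. Robo3 is lower after cocaine in the NAc at 28 days (means 0.583 and 0.290 RPKM) and higher in the VTA at 28 days (means 0.284 and 0.631 RPKM).

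The third question was how the members varied together from library to library, within groups. For each library the deviation of log2(RPKM + 0.1) from its group mean was taken, and 336 relations were computed: all pairs of members and each member against 9 marker lists, over all libraries and within each region. Each was tested by permuting libraries within groups 100000 times, two-sided, and adjusted over all 336. Of these, 44 had an adjusted p under 0.05. Libraries of different regions may come from the same mouse, which the labels do not tell.

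Slit1 and Slit2 moved together, with r = 0.72 (Spearman rho 0.64, n = 71, p = 1e-05, the smallest these permutations can give, adjusted p = 0.000672) and 0.69 without the 2 libraries farthest from the median of Slit2. Within regions r was 0.86 in the NAc, 0.43 in the VTA and 0.54 in the PFC. The relation in the NAc passed (rho 0.87, n = 24, p = 1e-05 by permutation, adjusted p = 0.000672), with r = 0.84 without 2 libraries. Those in VTA and PFC did not (adjusted permutation p = 0.177 and 0.0818), and r in the PFC was 0.24 without 2 libraries. In the NAc, both genes also moved with the astrocyte markers (r = 0.71 for Slit1 and 0.76 for Slit2, n = 24, adjusted permutation p = 0.00435 for each) and against the striatal markers (r = -0.68 and -0.70, adjusted permutation p = 0.0111 and 0.00548). The part of these markers in the relation was not tested. Robo1 and Robo2 had r = 0.03 over all libraries, -0.38 in the NAc, 0.60 in the VTA and -0.13 in the PFC, and none of these passed (adjusted permutation p from 0.0964 to 0.929). Slit3 and Robo4 passed in the VTA (r = 0.77, rho 0.77, n = 23, adjusted permutation p = 0.00435, r = 0.68 without 2 libraries). So did Robo2 and Robo3 in the NAc (r = 0.68, rho 0.62, n = 24, adjusted permutation p = 0.0225, r = 0.65 without 2 libraries), and Slit1 and Slit3 in the PFC (r = 0.58, rho 0.59, n = 24, adjusted permutation p = 0.0477, r = 0.39 without 2 libraries). Slit2, which hosts a miR-218 hairpin, had r = -0.32 with Robo1 and -0.37 with Robo2 (n = 71, permutation p = 0.0184 and 0.0139, adjusted p = 0.0905 and 0.0777), and neither passed. Slit3, which hosts the other, had r = 0.44 with Robo1 (rho 0.41, n = 71, permutation p = 0.00146, adjusted p = 0.0188, r = 0.35 without 2 libraries), and r = -0.19 with Robo2. Within regions, the relation of Slit3 and Robo1 passed in the PFC (r = 0.68, adjusted permutation p = 0.0111) and not in the NAc (r = 0.41, adjusted permutation p = 0.159) or the VTA (r = 0.44, adjusted permutation p = 0.241). The PFC relation kept saline library 4 at 28 days, which held the most striatal markers. It had 7.44 RPKM of Robo1, the highest of its group, and 8.88 RPKM of Slit3, next to 8.92 RPKM in library 2. The part of this library in the relation was not tested.

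Some members moved with the RNA of cell type markers, and not every relation that passed is named here. Robo4 followed the endothelial markers with r = 0.81 (rho 0.80, n = 71, permutation p = 1e-05, adjusted p = 0.000672, r = 0.78 without 2 libraries), and with r = 0.63, 0.88 and 0.84 in NAc, VTA and PFC. Over all libraries it also passed with the astrocyte (r = 0.51, adjusted permutation p = 0.00096), fibroblast (0.44, 0.0197) and microglia markers (0.44, 0.0225). Slit2 passed there with the cortical excitatory markers (r = 0.49, adjusted permutation p = 0.0256) and against the striatal ones (-0.34, 0.0144). In the VTA, Slit3 followed the endothelial markers (r = 0.82, rho 0.80, n = 23, adjusted permutation p = 0.00235, r = 0.71 without 2 libraries) and the fibroblast markers (r = 0.75, rho 0.73, n = 23, adjusted permutation p = 0.00435, r = 0.64 without 2 libraries). Robo2 followed the dopamine neuron markers there (r = 0.78, rho 0.77, n = 23, permutation p = 0.00018, adjusted p = 0.00435, r = 0.75 without 2 libraries). In the NAc, Robo1 ran against the cortical excitatory markers (r = -0.86, rho -0.84, n = 24, permutation p = 1e-05, adjusted p = 0.000672, r = -0.84 without 2 libraries). There Robo2 ran against the thalamus and habenula markers (r = -0.78, rho -0.73, n = 24, permutation p = 0.00011, adjusted p = 0.00336, r = -0.77 without 2 libraries). It did so over all libraries too (r = -0.62, n = 71, adjusted permutation p = 0.00112).

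**Figure D5:**
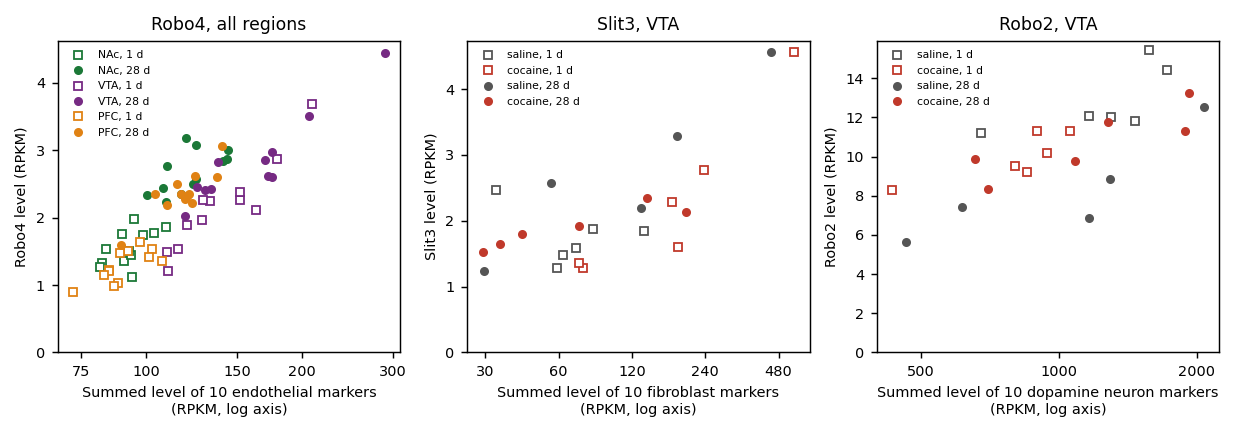
Level of Robo4 in all regions, and of Slit3 and Robo2 in the VTA (RPKM), against the summed level of 10 marker genes of a cell type (RPKM, log axis), 1 point per library, with open squares at 1 day and filled circles at 28 days. Robo4 climbs with the endothelial markers (r = 0.81 of the deviations from group means), Slit3 with the fibroblast markers (r = 0.75) and Robo2 with the dopamine neuron markers (r = 0.78).

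The genes whose deviations were most like those of each member over the 71 libraries were then listed, among about 13816 genes tested in all tables, as a description. They were Chd5 (r = 0.89), Cacna1g (0.87) and 4931428F04Rik (0.83) for Slit1. For Slit2 they were Lrp8 (r = 0.77), Miat (0.76) and Srrm4 (0.75). For Slit3 they were Sh3pxd2a (r = 0.83), Dag1 (0.82) and Pml (0.80), where Dag1 encodes dystroglycan, a surface protein that binds Slits. For Robo1 they were Tln2 (r = 0.71), Caln1 (0.70) and Isoc1 (0.66), and for Robo2 Gpr158 (r = 0.82), Cadm2 (0.79) and Plcb1 (0.75). Robo3 had the weakest likeness, with Gm3667 (r = 0.60), A830010M20Rik (0.57) and Frmd3 (0.57). For Robo4 they were Pltp (r = 0.84), Arap3 (0.81) and Esam (0.81), and Esam is an endothelial adhesion molecule among the markers used above.

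Within the VTA, where the members stood furthest apart after cocaine, the likest genes over 23 libraries were Ablim3 (r = 0.92), Pacs1 (0.91) and Pcsk2 (0.91) for Slit1, and Dgcr8 (r = 0.82), Cntn5 (0.81) and Rbm24 (0.81) for Slit2. Dgcr8 encodes a protein of microRNA processing. They were Sh3pxd2a (r = 0.94), Zyx (0.94) and Bmp1 (0.93) for Slit3, Bsn (r = 0.89), Tmem132b (0.84) and Abca3 (0.83) for Robo1, and 3110047P20Rik (r = 0.93), Plcxd2 (0.93) and Sv2c (0.92) for Robo2. Gm3667 (r = 0.87), Pid1 (0.86) and Nsun7 (0.84) were likest to Robo3, and Zfp36 (r = 0.93), Pnpla2 (0.93) and Esam (0.93) to Robo4.

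In the NAc, over 24 libraries, the likest genes were Nfix (r = 0.94), Chd5 (0.94) and Cacna1g (0.93) for Slit1, Ak5 (r = 0.90), Adrbk2 (0.89) and Matn2 (0.89) for Slit2, and Slc24a4 (r = 0.92), Atf7ip (0.87) and Dlgap2 (0.87) for Slit3. They were Slc7a14 (r = 0.95), Abat (0.94) and BC007180 (0.92) for Robo1, Pdp1 (r = 0.93), Deptor (0.92) and Ndfip2 (0.92) for Robo2, 5930412G12Rik (r = 0.75), Hs3st4 (0.70) and Mpp3 (0.69) for Robo3, and Glis3 (r = 0.78), Ubn1 (0.77) and Gpr124 (0.76) for Robo4. In the PFC, over 24 libraries, they were Plxna3 (r = 0.95), Bcl9 (0.94) and Csmd2 (0.91) for Slit1, Magi1 (r = 0.88), Eif4g3 (0.84) and Clstn2 (0.84) for Slit2, and Cacna1c (r = 0.89) and Dag1 (0.86) for Slit3. The PFC list went on with Fam65b (r = 0.86), Scn3a (0.85) and Baiap3 (0.84) for Robo1, Plcb1 (r = 0.91), Camk4 (0.90) and Ano3 (0.89) for Robo2, Coro6 (r = 0.93), Srpk1 (0.89) and Aifm3 (0.87) for Robo3, and Flt1 (r = 0.86), Itpkb (0.86) and Cdh5 (0.86) for Robo4. Flt1 and Cdh5 are endothelial genes, and Cacna1g, Cacna1c and Scn3a encode channel subunits of neurons.

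The wider pathway was followed with 42 genes: heparan sulphate and other surface partners of Slit and Robo, linked guidance receptors, small GTPases and their regulators, adaptors and actin regulators, and proteins of receptor trafficking. Of the 41 or 42 tested in each table, 0 were called after cocaine in any of the 6 (edgeR or limma), also 0 with DESeq2 in the count tables. At an unadjusted p under 0.05, there were 2 and 3 for the NAc at 1 and 28 days, 5 and 12 for the VTA, and 1 and 2 for the PFC, where 4.01%, 6.76%, 15.7%, 11.5%, 3.78% and 5.66% of all genes were. In the VTA at 28 days, 8 of the 12 were higher after cocaine and 4 lower.

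The pathway genes with the smallest p in each direction are given next, and each adjusted p is over all genes of its table. In the NAc, Enah, an actin regulator that acts below Robo, had log2 fold changes of 0.15 (SE 0.0548, adjusted p = 1.00, edgeR) at 1 day and 0.23 (SE 0.0599, adjusted p = 0.592, edgeR) at 28 days. The lowest were Unc5b, a netrin receptor that also binds Robo4, at 1 day (-0.31, SE 0.104) and Cxcl12, a chemokine whose signal Slit can dampen, at 28 days (-0.32, SE 0.119). In the VTA at 1 day, Ext1, an enzyme of heparan sulphate synthesis, was at 3.06 ± 0.235 RPKM in the saline and 3.72 ± 0.420 RPKM in the cocaine libraries (SD, n = 6 each, log2 0.27, SE 0.0869, adjusted p = 0.195, limma), and Unc5b at 12.8 ± 1.91 and 9.75 ± 1.38 RPKM (log2 -0.38, SE 0.108, adjusted p = 0.139, limma). In the VTA at 28 days, Plxna1, a plexin receptor for semaphorins and for Slit fragments, was at 15.7 ± 3.27 RPKM (SD, n = 5) in the saline libraries, while the cocaine libraries had 21.1 ± 1.26 RPKM (SD, n = 6) (log2 0.41, SE 0.119, adjusted p = 0.389, edgeR), and the GTPase Rhoa at 84.2 ± 4.11 and 72.4 ± 5.53 RPKM (log2 -0.23, SE 0.0672, adjusted p = 0.389, edgeR). In the PFC, Rhoa (0.10, SE 0.0538) and Cxcl12 (-0.15, SE 0.0667) came first at 1 day, and Srgap3, one of the srGAPs that bind Robo (0.16, SE 0.0552), and Ndst1, of heparan sulphate synthesis (-0.13, SE 0.0568), at 28 days.

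Between regions of saline mice, 23 of 42 pathway genes passed at 28 days between NAc and VTA, 22 between NAc and PFC and 30 between VTA and PFC, and at 1 day 22, 22 and 28. These are 54.8%, 52.4% and 71.4% at 28 days, against 62.5%, 40.7% and 57.8% of all genes tested. At 1 day they are 52.4%, 52.4% and 66.7%, against 66.0%, 40.9% and 64.6%. The directions were nearly even, from 11 higher in NAc against 11 higher in PFC to 13 higher in VTA against 17 higher in PFC at 28 days.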

How the data were processed

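Per the labels and the study's methods, the authors aligned HiSeq reads with STAR 2.4.1d to mm9 and counted them per Ensembl gene with a tool that, like the strand of counting, is not given in the sources used here. The authors deposited raw counts for NAc at both times and for VTA and PFC at 28 days, and RPKM for VTA and PFC at 1 day. The authors' own fold changes and p-values stand beside them and were not used, nor were 30 columns of values that belong to no sample here. The 28-day columns give a group but no label number, so libraries are numbered within their group. The labels do not say that libraries of a group came from separate mice, so p-values measure the spread between libraries.

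Counts were analysed with edgeR 4.0.16 (filterByExpr, TMM, glmQLFit) and RPKM with limma 3.58.1 with a trend, on log2(RPKM + 0.1), keeping genes whose mean reached 0.5 RPKM, with Benjamini-Hochberg adjustment over all genes of a table. Of 7 members, 7 passed the filter in 5 tables and 6 in the VTA at 1 day, where Robo3 did not. RPKM of count tables was computed with the gene lengths that the deposited RPKM imply. From the steps of RPKM, whole reads were recovered for 100% of the genes with reads in both RPKM tables (23806 in VTA, 23353 in PFC, within 0.001 of a whole number). These recovered reads went into the region tests at 1 day with edgeR. The fits were tested on simulated tables in which 200 genes with many reads were changed 2-fold. From 95.5% to 100% of them were recovered, and from 2.91% to 7.28% of the calls were false. Smaller changes and genes with few reads, such as Robo3, were not covered by this.

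No libraries of a group were identical, and in each of the 175 pairs counts differed beyond sampling noise (chi-square per gene at least 4.59). The members and lists were chosen with earlier results of these data known. The named genes are the members, the pathway genes with the smallest p in each direction where 0 were called, and the 3 genes most correlated with each member, of which 1 is not reported here. Annotated genes that overlap Slit2, Slit3 or Robo2 lie within their introns, and the other members overlap none. Alternatives were DESeq2 1.42.0, its size factors, no filter, a pseudocount of 1, a replicate block, a cortical covariate, added cocaine libraries and each library left out. The cortical covariate was fitted in the VTA only, so no NAc or PFC value was adjusted for these markers. Figures were drawn with matplotlib 3.10.9.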

Additional observations from a re-analysis of the deposited data

Results flagged for a closer look

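Of 84 groups of libraries of a member, 5 had a library with a wide gap to the others by Dixon's test, and chance gives about 1 in 20. They were Slit1 in saline VTA at 28 days (lowest library 9.70 RPKM), Slit2 in the same group (highest library 7.96 RPKM), Robo3 in cocaine NAc at 1 day (highest library 0.872 RPKM) and at 28 days (highest library 0.460 RPKM), and Robo4 in saline PFC at 28 days (highest library 3.06 RPKM). The libraries of Slit2 and Robo4 named here are also those with the most fibroblast and striatal markers of their groups.

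For 3 members, all cocaine libraries lay on one side of the saline mean in one table and on the other side in another, and these differences were not tested. The share of all genes that do so is not given, so nothing is read from this number. Robo3 had log2 fold changes of 1.15 in the VTA and -1.0 in the NAc at 28 days. Robo2 had 0.37 in the VTA at 28 days against -0.23 in the NAc at 28 days, and against -0.36 in the VTA at 1 day. Robo1 had 0.24 in the NAc and -0.12 in the PFC at 28 days. With the cortical covariate the VTA values of Robo2 were 0.01 at 28 days and -0.21 at 1 day, and that of Robo3 at 28 days was 1.03.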

How the results depend on the processing

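Of the counts of members called after cocaine, that of the VTA at 1 day was 1 and ran from 0 to 1 with each library left out, the 0 arising without cocaine library 2, 3 or 4 or saline library 1, 2 or 5, and it was 0 with the cortical covariate. That of the VTA at 28 days was 0, and 2 with DESeq2. The cause of this difference was not tested. The members were chosen by these contrasts, so their calls are a description and nothing is read from them. Over all genes, the main count of 10 in the VTA at 1 day was 55 with edgeR on recovered reads, 60 with the replicate block and 0 with the cortical covariate, and DESeq2 gave 74 in the VTA, 14 in the NAc and 2 in the PFC at 28 days, where edgeR gave 0, and 21 against 2 in the NAc at 1 day. Unadjusted p-values under 0.05 numbered 1942, 1102 and 925 in those 28-day tables. With the replicate block at 1 day, 1 pathway gene of the VTA was called (Unc5b) and Slit2 stayed called, and the block changed no other call of a member or of the number of members and pathway genes called. Whether equal replicate numbers mark paired samples is not stated in the labels and was not settled here. Correlations of same-numbered libraries ran from -0.537 to 0.637, and 3, 4 and 0 of 12 libraries in NAc, VTA and PFC were closest to their own number. With the block, the SE fell for some members (Slit1 in the NAc from 0.223 to 0.127, Robo4 in the VTA from 0.208 to 0.109). It rose for others (Robo1 in the VTA from 0.0917 to 0.102). No block was fitted at 28 days, where columns carry no number.

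Of the refits of member fold changes after cocaine, 638 were counted as the same and 3 as moved. All 3 were in the VTA at 28 days with the cortical covariate, which was fitted in the VTA only (Slit3 0.02, Robo2 0.01 and Robo4 -0.00). Refits share libraries with the main fit, and being counted as the same does not mean that a call, a size or a sign was kept. Slit3 in the VTA at 1 day was counted as the same though it went from 0.26 to -0.10 with that covariate. So was Robo3 in the NAc at 1 day, from 0.32 to 0.03 without cocaine library 6. Slit2 in the VTA at 1 day went from 0.62 to 0.48 with that covariate and lost its call. Of the refits of region differences, 902 kept their call, 13 gained one and 9 lost one, and with cocaine libraries added Slit1 between VTA and PFC at 28 days was among those lost (log2 -0.14, adjusted p = 0.360, edgeR). Depth limits Robo3 most, with 8 to 150 reads in a VTA library.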
